A study of Mus musculus with 8 samples.

Results

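The 10 genes described here encode 7 small heat shock proteins (Hspb1, Hspb2, Hspb3, Hspb6, Hspb7, Hspb8 and Cryab) and 3 co-chaperones (Bag3, Dnajb4 and Hsph1). They were chosen by name, with earlier results of these data known. Each was represented by a probe set that the platform annotation assigns to its symbol alone, and all 10 were found among the 19938 genes measured. RNA came from gastrocnemius, a mixed calf muscle, of mice aged 30 weeks on a low-fat chow diet. The groups were 4 samples from HDAC5 KO mice, called knockout here, and 4 from wild type littermates, and neither group received a further treatment. HDAC5 is a histone deacetylase that holds back transcription by MEF2 factors in muscle. The sources used here do not give the deleted part of the gene, the strain, the sex or whether each sample came from a different animal. The p-values therefore reflect only how far these samples scattered, which may be technical.

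Small heat shock proteins share a conserved alpha-crystallin domain, assemble into oligomers and hold unfolding proteins in a state from which they can be refolded. They use no ATP, and they pass their clients to the ATP-driven Hsp70 machine, which J-domain proteins such as the product of Dnajb4 load and which exchange factors such as the products of Hsph1 and Bag3 unload. Striated muscle is rich in them, and there they are known for guarding actin, desmin, titin and filamin at the Z-disc under mechanical load. Many of the genes are switched on by heat shock factor 1 through heat shock elements, which are built of inverted GAA units. Mutations in several of these genes cause muscle disease.

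Promoter sequences were looked up in RefSeq (GRCm38.p6), as windows of 250 bases before to 50 bases after each annotated start. 8 of the 10 genes were listed, with 11 windows in all, and Hspb2 and Cryab were not. A pair of heat shock element units was searched on both strands in its head-to-head form, GAANNTTC, and its tail-to-tail form, TTCNNGAA. These forms can overlap each other. Full elements, of more units, were not searched. The head-to-head form was found in 6 of the 8 genes (Bag3, Hspb1, Hspb3, Hspb6, Hspb8 and Hsph1) and in 7.86% of all 32851 windows, and the tail-to-tail form in 2 of the 8 (Dnajb4 and Hsph1) and in 8.52% of all windows. At least one form was present in 7 of the 8 genes and in 15.1% of all windows, and Hspb7 held neither. A gene was counted when any of its windows held a match, so counts of genes and shares of windows are unlike measures. By window, the head-to-head form was in 7 of the 11 and the tail-to-tail form in 3 of the 11. The same letters, GAAGTTTC, occurred in 4 of the genes (Bag3, Hspb1, Hspb6 and Hspb8) and in 1.21% of all windows. A match to the MEF2 consensus, searched because HDAC5 acts on MEF2 and chosen after the values of Hspb3 had been seen, occurred in Hspb3 alone among the 8 genes and in 0.557% of all windows. Its letters, CTATAAATAG, lay 12 to 3 bases before the annotated start, and what they do there was not tested. The letters CANNTG (E-box) were also searched. They were found in 5 of the 8 genes and in 72.3% of all windows. A match describes letters and is not a measured binding site.

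The 250 bases before the start are printed 5′ to 3′ on the strand of the gene for 4 genes that the results below turn on: Hspb3 and Dnajb4, the pair with an unadjusted p under 0.05, and Hspb1 and Hsph1, the pair that varied most alike. Capitals mark the MEF2 match in Hspb3 and the pairs of heat shock element units in the others. The windows are chr13:113663677-113663926 on the minus strand for Hspb3, chr3:152193846-152194095 on the minus strand for the Dnajb4 start that carries a match, chr5:135887669-135887918 on the plus strand for Hspb1 and chr5:149636337-149636586 on the minus strand for Hsph1.
Hspb3: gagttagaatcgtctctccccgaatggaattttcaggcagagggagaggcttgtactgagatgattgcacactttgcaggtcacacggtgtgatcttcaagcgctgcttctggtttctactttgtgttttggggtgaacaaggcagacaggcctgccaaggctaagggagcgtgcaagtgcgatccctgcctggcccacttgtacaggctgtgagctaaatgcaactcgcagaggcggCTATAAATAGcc
Dnajb4: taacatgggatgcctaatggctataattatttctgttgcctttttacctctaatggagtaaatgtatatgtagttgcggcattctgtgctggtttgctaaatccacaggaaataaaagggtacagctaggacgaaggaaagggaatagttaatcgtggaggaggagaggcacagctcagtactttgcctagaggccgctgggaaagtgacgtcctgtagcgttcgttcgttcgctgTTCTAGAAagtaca
Hspb1: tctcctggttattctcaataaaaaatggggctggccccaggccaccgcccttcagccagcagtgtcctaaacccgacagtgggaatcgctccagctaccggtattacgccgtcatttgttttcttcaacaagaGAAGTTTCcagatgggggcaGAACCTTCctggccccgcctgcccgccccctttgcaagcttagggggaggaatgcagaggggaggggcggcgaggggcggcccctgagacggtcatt
Hsph1: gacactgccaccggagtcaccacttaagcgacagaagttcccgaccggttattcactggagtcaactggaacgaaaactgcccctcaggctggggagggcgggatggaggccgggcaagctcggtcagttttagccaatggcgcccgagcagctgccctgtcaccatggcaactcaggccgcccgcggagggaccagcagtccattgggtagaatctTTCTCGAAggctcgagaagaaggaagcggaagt

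Array values are log2 signals, so a difference of 1 is a doubling, and a level cannot be set against that of another gene because each probe set has its own brightness. Array medians lay between 7.69 and 7.77, and arrays correlated at 0.988 to 0.995 over all probe sets. The first principal component held 34.1% of the variance and had knockout sample 1 and wild type sample 4 at its ends. Its scores fell with the sample number in knockout (16.5, 9.0, 1.2 and -7.8 in samples 1 to 4). They were 2.5, -2.8, 0.2 and -18.8 in wild type samples 1 to 4. What this component reflects was not tested. Hdac5 itself was at 8.31 to 8.39 in knockout and 9.76 to 9.94 in wild type samples. The 6 skeletal muscle markers had mean levels of 14.29 to 14.35 in the 8 samples, and the 7 cardiac markers of 7.85 to 8.15, without a comparison of levels between the lists. The lowest of the chosen probe sets, that of Hspb3, was brighter than 78.5% of genes, so none lay near the floor of the arrays. Those of Hspb6, Hspb7 and Hspb8 were brighter than 99.9%, 98.9% and 98.2% of genes. Whether probe sets this bright could still show a change was not tested.

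None of the 10 genes passed the test between genotypes. In limma, 0 of 10 passed an adjusted p under 0.05 over all genes, where 0.0652% of all genes passed, and the adjusted p-values ran from 0.388 for Hspb3 to 0.988 for Hspb1. At an unadjusted p under 0.05 in limma there were 2 of 10, Hspb3 with a lower and Dnajb4 with a higher mean in knockout muscle, against 7.90% of all genes. The genotypes did not overlap in 1 of 10, Hspb3, against 4.90% of all genes. The median difference over the 10 genes was 0.0040 and over all genes 0.0030, with 5 genes higher and 5 lower, and no difference was larger than that of Hspb3 in either direction. The plots of signal in each array and of the differences show all 10 genes.

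**Figure D1:**
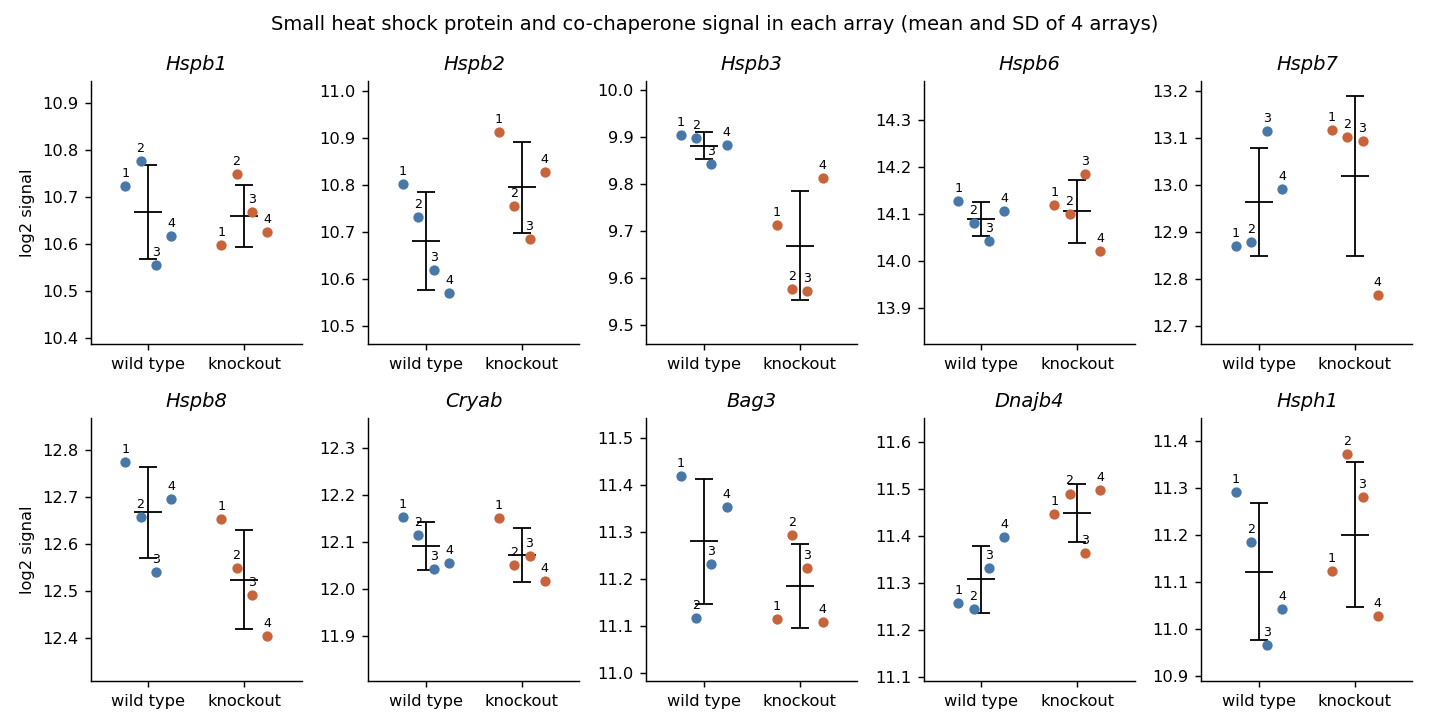
Log2 signal of each of the 10 genes (one panel each, all spanning the same range of log2 units) in 4 wild type and 4 knockout arrays; points are arrays with their replicate number, and bars give the mean and SD. Only the panel of Hspb3 shows no overlap, with knockout arrays at 9.57 to 9.81 and wild type arrays at 9.84 to 9.91, while knockout array 4 lies apart in the panel of Hspb7.

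**Figure D2:**
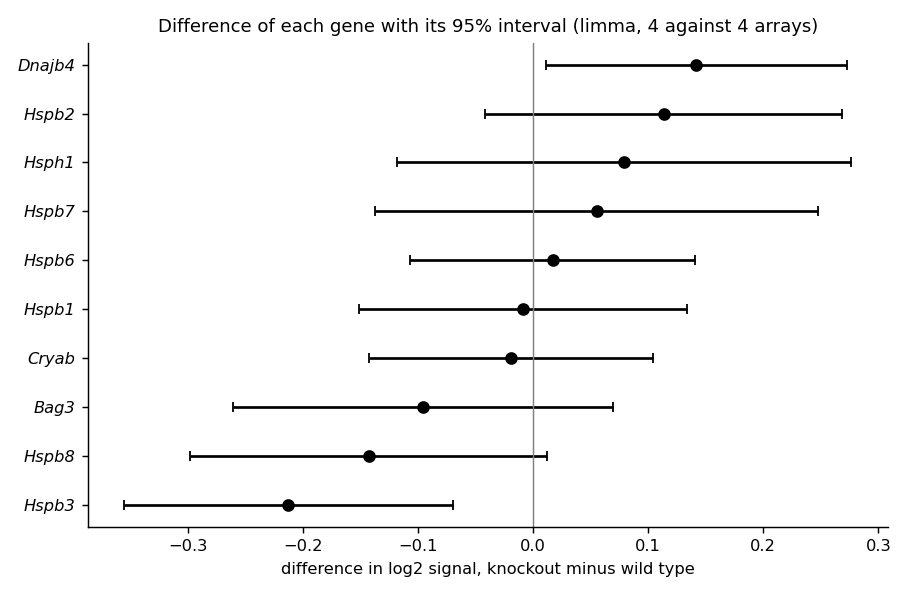
Difference in log2 signal, knockout minus wild type, for each gene with its 95% interval from limma (4 against 4 arrays), ordered by size. The intervals of Hspb3 (-0.36 to -0.07) and Dnajb4 (0.01 to 0.27) exclude 0 before any adjustment over genes, and the other 8 include it.

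Hspb3 belongs to a small heat shock protein that muscle makes as it differentiates and that binds the product of Hspb2. Its levels were 9.71, 9.58, 9.57 and 9.81 in knockout samples 1 to 4 and 9.91, 9.90, 9.84 and 9.88 in wild type samples 1 to 4. Every knockout sample was below every wild type sample, but knockout sample 4 came within 0.03 of wild type sample 3, and the knockout samples were the more scattered (SD 0.12 against 0.03). The difference was -0.21 (SE 0.065, n = 4 against 4, limma adjusted p = 0.388, unadjusted p = 0.00704), or -13.7% in signal with a 95% interval of -21.8% to -4.73%. An exact 2-sided permutation test gave p = 0.0286, its lowest possible value at this sample number. Under quantile normalization the genotypes overlapped, with a highest knockout value of 9.84 and a lowest wild type value of 9.83, and the difference was -0.23.

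Hspb2, the partner of Hspb3 in that complex, lies beside Cryab in the genome. It stood at 10.91, 10.75, 10.69 and 10.83 in knockout samples 1 to 4 and at 10.80, 10.73, 10.62 and 10.57 in wild type samples 1 to 4. The genotypes overlapped, and the difference was 0.11 (SE 0.071, limma adjusted p = 0.759). It was 0.075 without knockout sample 1 and 0.04 once knockout sample 1 and wild type sample 4 were left out, which hold its highest and its lowest value. The partners Hspb2 and Hspb3 thus had differences of opposite sign, of which only that of Hspb3 had an interval on one side of 0, and the difference between them was not tested.

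Cryab, alpha-B-crystallin, is a chaperone of desmin and titin. Its samples spanned 12.02 to 12.15 in knockout and 12.04 to 12.15 in wild type muscle, the narrowest range of the 10 genes. The difference was -0.02 (SE 0.057, limma adjusted p = 0.958), and its 95% interval was -9.44% to 7.48%. The bounds of Cryab and Hspb2 overlap in RefSeq, and 6 of the 10 genes overlap some other gene (Hspb2, Hspb3, Hspb6, Hspb8, Cryab and Dnajb4). The sources used here do not give the strand that the probe sets read, so signal from an overlapping gene was not set apart. The overlapping protein-coding genes that were measured differed by -0.04 (Lin37, beside Hspb6), -0.07 (2310030G06Rik, beside Cryab) and 0.0053 (Fubp1, beside Dnajb4).

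Hspb1, the classical small heat shock protein that binds actin and is phosphorylated downstream of p38, had nearly equal means. It read 10.60 to 10.75 in knockout and 10.56 to 10.78 in wild type samples, with a difference of -0.0089 (SE 0.065, limma adjusted p = 0.988). The 95% interval was -9.98% to 9.72%. Hspb1 was the one gene with 2 probe sets, which carry the same accessions in the annotation, and the other gave -0.0077. Both probe sets ordered the 8 arrays almost alike (r = 0.998), with a gap of 0.19 to 0.21 on every array.

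Hspb6 encodes a small heat shock protein that is phosphorylated by protein kinase A and is abundant in slow fibres and smooth muscle. Its samples spanned 14.02 to 14.18 in knockout and 14.04 to 14.13 in wild type muscle. The difference was 0.02 (SE 0.057, limma adjusted p = 0.964), with an interval of -7.12% to 10.2%. Its probe set was brighter than that of 99.9% of genes, and whether it could still show a change was not tested.

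Hspb7, a striated muscle form that binds filamin C and thin filaments, had the widest spread within genotypes of the small heat shock proteins. Its SD pooled over both genotypes was 0.14. It was at 13.12, 13.10, 13.09 and 12.77 in knockout samples 1 to 4 and at 12.87, 12.88, 13.11 and 12.99 in wild type samples 1 to 4. Knockout samples 1 to 3 lay close together and knockout sample 4 was the lowest of all 8. The difference was 0.06 (SE 0.088, limma adjusted p = 0.923) with all samples and 0.14 (unadjusted p = 0.0757, adjusted p = 0.519) without knockout sample 4. It was 0.11 without wild type sample 3 and 0.023 to 0.031 without knockout sample 1, 2 or 3 or wild type sample 1 or 2.

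Hspb8 and Bag3 act as a pair: the small heat shock protein binds BAG3, which joins it to Hsp70 and steers damaged filamin to autophagy at the Z-disc. Hspb8 read 12.65, 12.55, 12.49 and 12.40 in knockout samples 1 to 4 and 12.77, 12.66, 12.54 and 12.70 in wild type samples 1 to 4. Wild type sample 3 alone lay inside the knockout range. The difference was -0.14 (SE 0.071, limma adjusted p = 0.669, unadjusted p = 0.0675), or -9.42% in signal with an interval of -18.6% to 0.840%.

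Bag3 read 11.12, 11.29, 11.22 and 11.11 in knockout samples 1 to 4 and 11.42, 11.12, 11.23 and 11.35 in wild type samples 1 to 4. The genotypes overlapped over most of their range, and the difference was -0.10 (SE 0.076, limma adjusted p = 0.817). Leaving out wild type sample 1 gave -0.05, and leaving out wild type sample 2 gave -0.15. Neither partner of the complex passed. Of the 16 listed partners and clients of this pathway, 0 passed over all genes and their median difference was -0.02. At an unadjusted p under 0.05 in limma there was 1 of 16, against 7.90% of all genes, a share too close to read as a result of the list. It was Map1lc3b, whose product coats autophagosomes, with a difference of -0.16 (SE 0.055, adjusted p = 0.457).

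Dnajb4 encodes a J-domain protein that stimulates the ATPase of Hsp70. It was at 11.45, 11.49, 11.36 and 11.50 in knockout samples 1 to 4 and at 11.26, 11.25, 11.33 and 11.40 in wild type samples 1 to 4. Knockout sample 3 fell below wild type sample 4, and the other knockout samples lay above every wild type sample. The difference was 0.14 (SE 0.060, limma adjusted p = 0.586, unadjusted p = 0.0360), a signal 10.3% higher with an interval from 0.759% to 20.8%, and the exact 2-sided permutation p was 0.0571. The unadjusted p no longer passed without knockout sample 1, 2 or 4 or without wild type sample 1, 2 or 3, with a highest value of 0.101 among these, while the difference was 0.12 to 0.15.

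Hsph1 encodes the Hsp110 exchange factor of Hsp70. It read 11.12, 11.37, 11.28 and 11.03 in knockout samples 1 to 4 and 11.29, 11.19, 10.97 and 11.04 in wild type samples 1 to 4, the widest range of the 10 genes. The difference was 0.08 (SE 0.090, limma adjusted p = 0.882), with an interval of -7.87% to 21.1%. Leaving out knockout sample 2 gave 0.022 and leaving out knockout sample 3 gave 0.052. Omitting wild type sample 3 gave 0.027 and omitting wild type sample 4 gave 0.053, while dropping either knockout sample 4 or wild type sample 1 gave 0.14. Its SD within genotypes, pooled over both (0.15), was the largest of the 10. Those of Hspb6 and Cryab (0.05 each) were the smallest, where the median gene had 0.10. In knockout samples alone the SD of Hspb7 was larger (0.17, against 0.16 for Hsph1).

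The genes were also compared for how they varied from array to array. Over 8 arrays the 45 pairs had a median Pearson r of 0.14, with 27 pairs above 0 and 18 below, and 0 pairs passed an exact permutation test after Benjamini-Hochberg adjustment over the pairs (2 pairs had an unadjusted p under 0.05). The most alike were Hspb1 and Hsph1, with r = 0.79 (exact permutation p = 0.0261, adjusted p = 0.641) and Spearman's rho = 0.76 (exact permutation p = 0.0368, adjusted p = 0.648). Knockout sample 2 and wild type sample 1 were among the 3 highest arrays for both, and wild type sample 3 was the lowest for both. Their r was 0.85 with the genotype means removed and 0.88 when the arrays farthest from the median of Hspb1 (knockout sample 2 and wild type sample 2) were left out. With the other probe set of Hspb1 it was 0.80.

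Hspb8 and Cryab followed, with r = 0.77 (exact permutation p = 0.0285, adjusted p = 0.641) and rho = 0.71 (exact permutation p = 0.0576, adjusted p = 0.648). Their r was 0.85 with genotype means removed and 0.48 without knockout sample 4 and wild type sample 1. For each pair given here, the arrays left out were those farthest from the median of the first gene named. Leaving them out narrows the range of that gene, which can lower r by itself. A fall in r therefore does not show what a relation rested on. The neighbours Hspb2 and Cryab had r = 0.49 (exact permutation p = 0.220, adjusted p = 0.842) and rho = 0.26 (exact permutation p = 0.536, adjusted p = 0.922), and r fell to 0.17 without knockout sample 1 and wild type sample 4. The partners Hspb8 and Bag3 had r = 0.54 (exact permutation p = 0.167, adjusted p = 0.842) and rho = 0.64 (exact permutation p = 0.0962, adjusted p = 0.841), and r was -0.09 without knockout sample 4 and wild type sample 1. The pairs thus ran from alike to opposed, with r from -0.60 to 0.79, and the plots of likeness and of the leading pairs show the values.

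**Figure D3:**
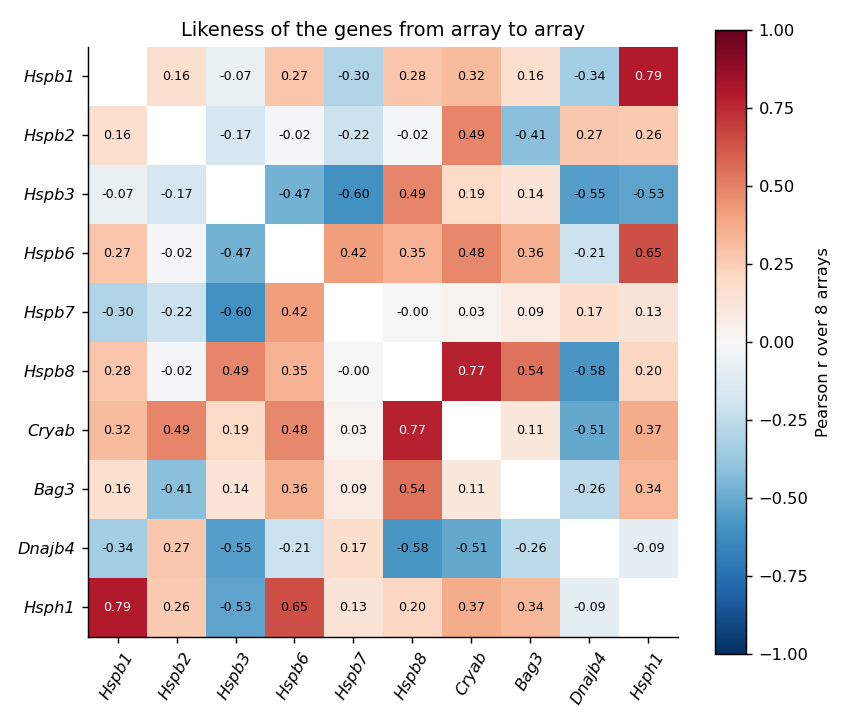
Pearson r over 8 arrays for each pair of the 10 genes (color from -1 to 1, values printed in the cells). The highest values are those of Hspb1 and Hsph1 (0.79) and of Hspb8 and Cryab (0.77), and the lowest is that of Hspb3 and Hspb7 (-0.60).

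**Figure D4:**
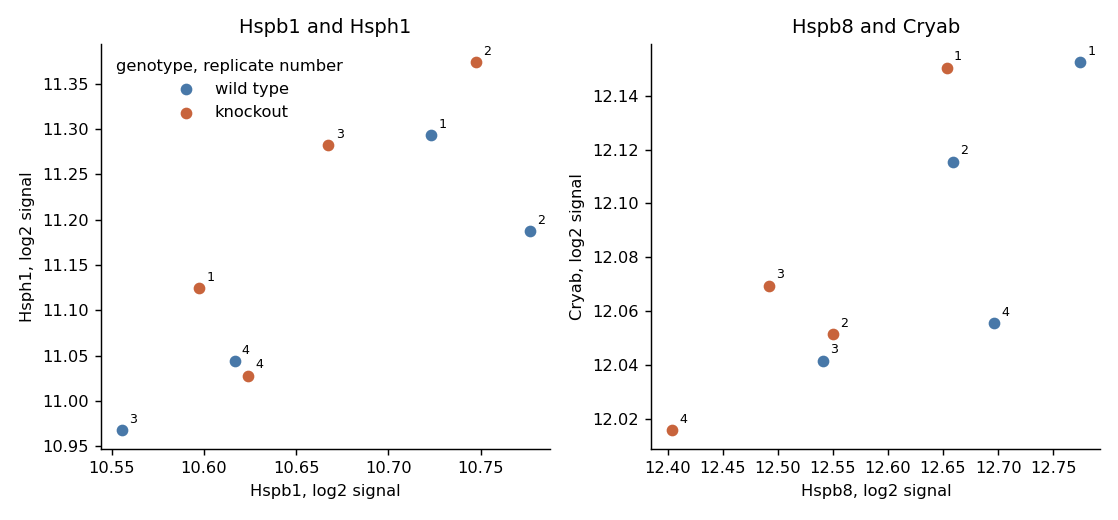
Log2 signal of Hsph1 against Hspb1 (left) and of Cryab against Hspb8 (right), one point per array with its replicate number, colored by genotype. Arrays of both genotypes lie along each trend, and on the right knockout array 4 and wild type array 1 form its ends.

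The other chaperone genes were read beside the 10. Their lists were written from textbook knowledge, with earlier results of these data known. Of 73 entries 70 were measured, and Hspa1b, Hsp90ab1 and Hsf1 were not analysed here. None of the 70 passed an adjusted p under 0.05 in limma over all genes. At an unadjusted p under 0.05 there were 6 (8.57%, against 7.90% of all genes), 3 higher and 3 lower, and the median difference was 0.02. The genotypes did not overlap in 3 of the 70 (4.29%, against 4.90% of all genes).

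Each family can be read by its members. Among 17 genes of the Hsp70 family and its exchange factors, Bag1, an exchange factor related to Bag3, had a difference of 0.15 (SE 0.054, limma adjusted p = 0.469), and Hspa1l, an Hsp70 form best known from testis, of -0.25 (SE 0.11, adjusted p = 0.597). Among 20 J-domain genes, Dnajc27 differed by 0.16 (SE 0.056, limma adjusted p = 0.462) and Dnajb6, a J-domain protein of the Z-disc, by -0.20 (SE 0.084, adjusted p = 0.586). Among 15 genes of the Hsp90 machine, the co-chaperone and glucocorticoid target Fkbp5 differed by 0.37 (SE 0.13, limma adjusted p = 0.469). In Bag1 and Dnajc27 the genotypes did not overlap, and in Hspa1l, Dnajb6 and Fkbp5 they did. Of all 70 genes, 44 had a higher and 26 a lower mean in knockout muscle. Over all 19938 genes measured, 10243 had a higher and 9694 a lower mean.

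In 10 chaperonin genes no unadjusted p was under 0.05. Those with the smallest were Cct3, at -0.11 (SE 0.058, limma adjusted p = 0.703), and Cct4, at 0.08 (SE 0.055, adjusted p = 0.798), both subunits of the cytosolic ring that folds actin and tubulin. Of the 5 heat shock factor genes, Hsbp1, whose product binds heat shock factor 1 and restrains it, had a difference of -0.24 (SE 0.056, limma adjusted p = 0.204). It lay at 11.39 to 11.54 in knockout and at 11.67 to 11.76 in wild type samples, with no overlap. The small heat shock proteins outside the 10 genes, Odf1 (-0.10, SE 0.065, limma adjusted p = 0.765), Cryaa (-0.06, SE 0.063, adjusted p = 0.882) and Hspb9 (-0.03, SE 0.057, adjusted p = 0.938), are known from sperm, lens and testis.

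Slow fibres are known to hold more of several small heat shock proteins than fast fibres do, and slow fibre markers had lower means in knockout muscle. Of 10 slow markers, 9 were lower and 1 was higher at an unadjusted p under 0.05 in limma, against 7.90% of all genes. The list was chosen with earlier results of these data known, so this count is a description. Of these markers 0 passed over all genes, and their median difference was -0.56. Their mean level was 10.82 to 11.41 in knockout and 11.42 to 11.81 in wild type samples. The 7 small heat shock proteins had a median difference of -0.0089, with 3 higher and 4 lower. They ranged from Hspb3, at -13.7% (95% interval -21.8% to -4.73%), and Hspb8, at -9.42% (-18.6% to 0.840%), to Hspb2, at 8.19% (-2.82% to 20.5%). The 10 fast markers had a median difference of -0.02, with mean levels of 14.29 to 14.33 in knockout and 14.32 to 14.34 in wild type samples. Probe sets of the fast markers are among the brightest measured, and whether they could still show a change was not tested. Fewer cells of a type and less RNA per cell cannot be told apart in whole muscle.

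Markers of other cells in the muscle were read beside these genes, and the ranges of their mean levels overlapped between genotypes in each list given here. In limma 0 genes of these lists passed over all genes. These lists too were chosen with earlier results of these data known, so their counts are a description. Of all 19938 genes, 10243 had a higher and 9694 a lower mean in knockout muscle. Macrophage markers had higher means in knockout muscle in 10 of 10 genes. Their mean levels were 8.33 to 8.66 in knockout and 8.01 to 8.38 in wild type samples. Fibroblast and matrix genes were higher in 8 of 9, with mean levels of 10.36 to 10.77 against 10.23 to 10.57. Tendon markers were lower in 7 of 8 (8.93 to 9.23 against 9.10 to 9.46) and Schwann cell markers in 5 of 5 (8.11 to 8.37 against 8.28 to 8.58). Endothelial markers were higher in 4 of 10 (9.86 to 10.16 against 9.88 to 10.12) and adipocyte markers in 3 of 7 (9.48 to 9.82 against 8.88 to 10.46). At an unadjusted p under 0.05 in limma, against 7.90% of all genes, 7 of 10 macrophage and 5 of 9 fibroblast and matrix genes were higher. At that threshold 1 tendon marker was higher and 4 were lower, 1 Schwann cell marker was lower, and there were 0 endothelial and 0 adipocyte markers. The part of these cells, and of slow fibres, in the values of Hspb3 and Dnajb4 was not tested.

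**Figure D5:**
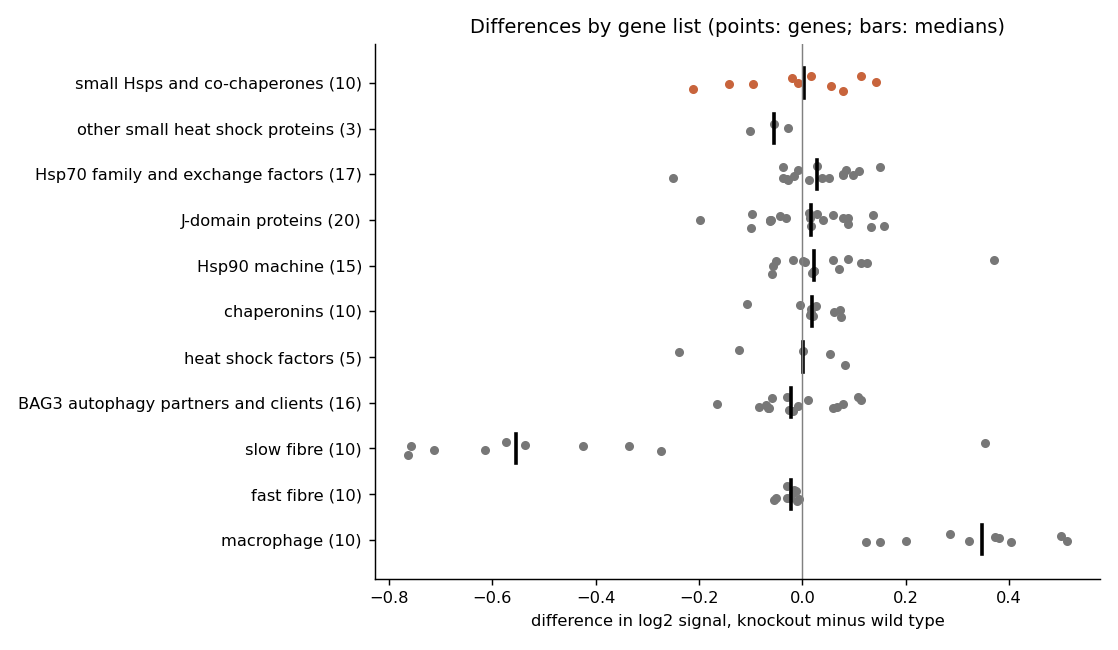
Difference in log2 signal, knockout minus wild type, for the 10 genes (orange) and for the genes of other chaperone lists and of 3 marker lists (grey); points are genes, bars are medians and brackets give the number of genes. The 10 genes and the chaperone lists lie around 0, with medians between -0.06 and 0.03, while the slow fibre median is -0.56 and the macrophage median 0.35.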

How the data were processed

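RNA of 8 muscle samples, 4 per genotype, was hybridised to Affymetrix mouse gene arrays from 150 ng of total RNA with an integrity number above 8, per the labels. The deposited log2 values, 1 per probe set and array, were made by the authors with Affymetrix Expression Console 4.0, per the submitters' processing notes. The sources used here do not give the background correction, summarisation or normalization, and the values themselves showed the log2 scale. Of 35556 probe sets, 21789 had 1 gene symbol and 1621 had several. Only those with 1 symbol were used, and the brightest of each gene was kept, which gave 19938 genes.

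The values were fitted as deposited with limma 3.58.1 (lmFit, eBayes; R 4.3.3) on genotype alone, with Benjamini-Hochberg adjustment over all 19938 genes. Genes passed at an adjusted p under 0.05. Each difference is knockout minus wild type, with the moderated SE of limma. The gene test was tested on simulated data. Those data were drawn independently for each gene, with added differences larger than those of the 10 genes. They do not show whether differences of the size seen here would be found. Correlations used all orderings of the arrays in Python 3.11.15, and plots matplotlib 3.10.9. The 10 genes and all lists were chosen with earlier results of these data known. Text names, beside the 10 genes, each listed chaperone gene with an unadjusted p under 0.05, or otherwise the 2 of smallest p per list, and the 5 genes most like the mean of the 10. Hspb9 and the names of the smooth muscle and pericyte genes were added after their values were seen. The number of arrays limits the precision. Alternatives changed the normalization, the dim genes kept, the probe sets, the variance model, the array weights, the replicate block and the samples.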

Additional observations from a re-analysis of the deposited data

Results flagged for a closer look

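Of 20 groups of 4 samples (10 genes in each genotype), 1 had a sample far from the others by Dixon's ratio, and chance marks about 1 in 20 groups. Hspb7 in knockout sample 4 was at 12.77, while the other knockout samples lay between 13.09 and 13.12.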

How the results depend on the processing

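None of the 10 genes passed an adjusted p under 0.05 in limma under any of the 16 alternatives, at an unadjusted p under 0.05 there were 1 to 3, and 7 of the 10 kept their direction in all of them. Hspb3 had an unadjusted p under 0.05 in 16 of 16 (differences of -0.26 to -0.18, adjusted p 0.174 to 0.739), Dnajb4 in 10 and Hspb8 in 5. The number of all genes that passed was 13, and it was 23 with quantile normalization, 36 without dim genes, 44 with a trended and robust eBayes, 31 with array weights, 5 when knockout sample 1 and wild type sample 4 were both left out, and 5 to 20 with 1 sample left out. With the replicate number as a block it was 30. Samples with the same number deviated together in 2 of 4 pairs (r of 0.34 for numbers 1 and 4, -0.11 for 2 and -0.15 for 3). Of the 4 knockout samples, 2 correlated best with their own number. The number was not taken as a pairing, but a check over 4 numbers cannot show whether samples were paired. With 1 sample left out, 1 to 2 of the 10 genes had an unadjusted p under 0.05 and 1 to 2 had no overlap between genotypes (Hspb3 each time, Dnajb4 without knockout sample 3 or wild type sample 4, Hspb8 without wild type sample 3). No overlap held for 0 with quantile normalization and for 2, Hspb3 and Dnajb4, with knockout sample 1 and wild type sample 4 left out. Smaller groups fail to overlap more often by chance. The share of all genes at an unadjusted p under 0.05 or without overlap was not counted under the alternatives. These counts are therefore not read as a result of the 10 genes. Differences near 0 turned sign: Hspb1 to 0.0062 with arrays centred on the median and between -0.046 and 0.027 with 1 sample left out, Hspb6 between -0.0093 and 0.045, and Cryab between -0.046 and 0.00088. The cause of these shifts was not tested. The alternatives without 2 arrays or with genotype means removed left 0 pairs of genes past adjustment, as with all arrays.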

Other observations

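Outside the 10 genes, those whose level over 8 arrays was most like the mean of the 10 genes (each centred on its own mean), among 9959 genes brighter than the median gene, were Mapre3 (r = 0.97), Klhl21 (0.93), Ube2z (0.93), Dhx16 (0.93) and Lonp1 (0.93). Without the 2 arrays farthest from the median of that mean, their r was 0.95, 0.89, 0.88, 0.75 and 0.85. They are the highest of many genes over few arrays, so these values are given as a description.

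Immediate early genes, which muscle switches on within minutes of handling or contraction, went both ways. Of 12 measured, 0 passed over all genes in limma. At an unadjusted p under 0.05 there were 3 higher and 2 lower, against 7.90% of all genes. Fos differed by 0.27 (SE 0.094), Atf3 by 0.27 (SE 0.083), Nr4a1 by 0.26 (SE 0.097), Ier3 by -0.27 (SE 0.071) and Btg2 by -0.26 (SE 0.083). The mean level of the list was 8.52 to 8.67 in knockout and 8.50 to 8.61 in wild type samples.

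Smooth muscle also expresses Hspb6, Hspb1 and Cryab, and the joint list of smooth muscle and pericyte markers split. Acta2, smooth muscle actin, was at 10.63 to 10.96 in knockout and 10.17 to 10.60 in wild type samples (difference 0.46, SE 0.10, limma adjusted p = 0.176), and Kcnj8, a potassium channel of mural cells, at 9.39 to 9.87 against 10.01 to 10.23 (difference -0.46, SE 0.093, limma adjusted p = 0.131). The 10 markers had mean levels of 9.72 to 9.93 in knockout and 9.76 to 9.87 in wild type samples, with 5 higher and 5 lower. Acta2, Myh11 (0.22), Cnn1 (0.20), Tagln (0.14) and Lmod1 (0.0092) were higher. Kcnj8, Cspg4 (-0.15), Des (-0.06), Mylk (-0.02) and Rgs5 (-0.01) were lower. At an unadjusted p under 0.05 in limma there were 2 higher and 2 lower, against 7.90% of all genes.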
